A study of Mus musculus with 2 samples.

Results

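Phagocytes make microbicidal oxidants through 2 enzymes, the NADPH oxidase and the inducible nitric oxide synthase, and make itaconate through another enzyme. Transcripts of 7 genes of these systems were followed in whole liver: Cybb, Cyba, Ncf1, Ncf4 and Rac2 of the oxidase, the nitric oxide synthase gene Nos2 and the itaconate-producing Acod1. They were taken by gene symbol from the array's annotation, in which each has 1 probe, and they are 7 of 19321 genes named there. One RNA came from liver of a 24-week-old Twist2-Cre/A20fl/fl genotype, called CKO here, and the other from liver of the 24-week-old Twist2-Cre genotype, called control. Both carry Twist2-Cre, and only the CKO is labelled with the floxed A20 alleles. Each genotype had 1 single-colour array, so no difference below has a replicate check, an error across animals or a test, and precision is limited by that number. The sources used here do not state how many animals gave each RNA.

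The phagocyte NADPH oxidase passes electrons from NADPH across the membrane to oxygen and so releases superoxide. Its core, a flavocytochrome of the proteins encoded by Cybb and Cyba, sits in the membrane, while cytosolic subunits, among them those encoded by Ncf1 and Ncf4, and a Rac GTPase join it when a phagocyte is stimulated. Nitric oxide is made from arginine by the synthase encoded by Nos2, which needs tetrahydrobiopterin, and itaconate is made in mitochondria of activated macrophages by the decarboxylase encoded by Acod1. In liver these systems are known mainly from Kupffer cells and recruited myeloid cells. The Cre driven by Twist2 acts on floxed genes in cells of mesenchymal origin, and A20, which Tnfaip3 encodes, edits ubiquitin chains and thereby dampens NF-kB signalling. Which liver cells had lost A20 was not measured here, and whole-liver RNA holds transcripts of all of them.

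The promoter windows of the genes are shown because genes of the phagocyte oxidase are known targets of interferon signalling and of the myeloid factor PU.1, which Spi1 encodes, and Acod1 is a known target of interferon and NF-kB signalling. RefSeq promoter sequences (GRCm38.p6, 250 bases before to 50 after the annotated start) were at hand for 4 of the 7 genes, Cybb, Cyba, Ncf1 and Acod1. Each window below is given 5′ to 3′ on the strand of its gene. Capitals mark the letters of the interferon-stimulated response element core (GAAA, any 2 bases, GAAA), of the gamma-activated sequence TTCNNNGAA and of the PU.1 core GAGGAA, on either strand.
Cybb, chrX:9469275-9469574, minus strand: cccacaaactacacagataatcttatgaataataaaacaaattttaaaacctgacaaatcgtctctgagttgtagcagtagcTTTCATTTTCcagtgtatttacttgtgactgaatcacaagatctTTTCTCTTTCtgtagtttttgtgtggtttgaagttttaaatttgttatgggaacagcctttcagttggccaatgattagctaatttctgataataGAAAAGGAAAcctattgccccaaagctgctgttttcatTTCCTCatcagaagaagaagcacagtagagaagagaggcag
Ncf1, chr5:134229576-134229875, minus strand: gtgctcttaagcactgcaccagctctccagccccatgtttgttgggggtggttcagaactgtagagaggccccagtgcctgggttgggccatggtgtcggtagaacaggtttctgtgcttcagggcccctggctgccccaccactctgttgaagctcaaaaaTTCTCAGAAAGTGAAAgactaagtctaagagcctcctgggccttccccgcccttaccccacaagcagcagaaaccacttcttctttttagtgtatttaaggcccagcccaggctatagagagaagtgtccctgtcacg
Acod1, chr14:103046762-103047061, plus strand: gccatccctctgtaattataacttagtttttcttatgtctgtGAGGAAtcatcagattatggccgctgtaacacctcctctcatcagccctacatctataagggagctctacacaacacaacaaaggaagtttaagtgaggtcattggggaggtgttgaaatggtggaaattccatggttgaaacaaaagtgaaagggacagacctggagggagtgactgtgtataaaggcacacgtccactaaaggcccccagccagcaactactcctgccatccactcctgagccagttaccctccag
With the start base as 0, the Cybb window held the response element core at -168 to -159, at -124 to -115 and at -29 to -20, and a PU.1 core at 9 to 14. The Ncf1 window held 1 response element core, at -82 to -73, which overlaps by 3 bases a gamma-activated sequence at -88 to -80. The Acod1 window held a PU.1 core at -208 to -203 and a TATA box (TATAAA) at -28 to -23. The Cyba window, chr8:122432891-122433190 on the minus strand, held none of these letters. The stricter PU.1 letters GAGGAAGT and the kappaB motif, searched only as GGGRNHYYCC, were in none of the 4 windows. In it R is A or G, N any base, H any base but G, and Y is C or T. Looser kappaB letters, which need not start with GGG, were not searched. The CCAAT letters were in the windows of Cybb and Acod1. Among all 32851 windows of this length, 3.44% held the response element core, 8.3% the gamma-activated sequence, 28.3% the short and 3.2% the long PU.1 letters, 6.93% the kappaB motif, 13.6% the TATA letters and 37.4% the CCAAT letters. These matches describe letters in the windows and say nothing about binding.

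**Figure D1:**
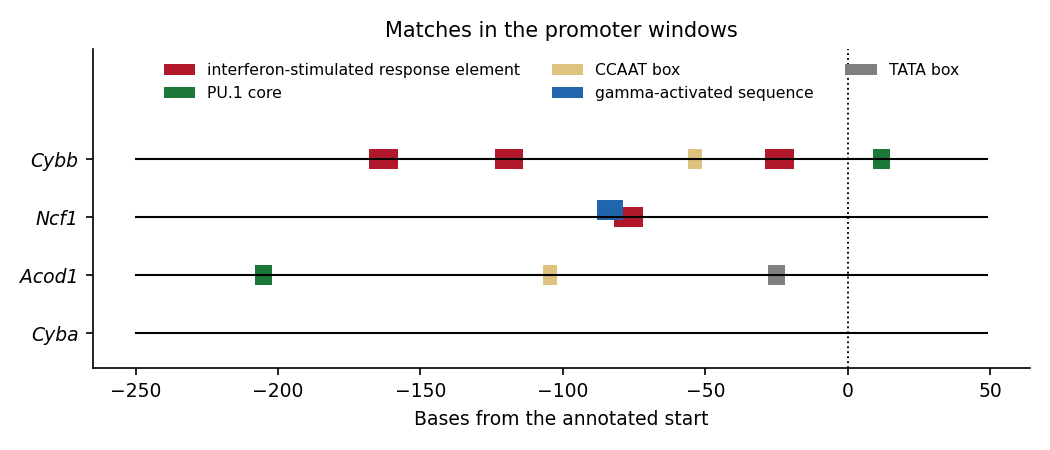
Matches to 5 short motifs in the promoter windows of Cybb, Ncf1, Acod1 and Cyba, with distance in bases from the annotated start on the x axis. Cybb carries 3 copies of the interferon-stimulated response element core, Ncf1 1 copy beside a gamma-activated sequence, and Cyba no match.

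Of the gene probes on the arrays, 17279 (73.6%) on the CKO array and 17313 (73.8%) on the control array were above background, set for each array at 2 SD over the mean of its blank spots. Tnfaip3, the floxed gene, had a deposited intensity of 38 in CKO and 41 in control liver and a log2 ratio of -0.07. Which exons its probe reads is unknown here, so this value does not check the genotype. The hepatocyte transcript Ttr was among the brightest signals of both livers, at 36430 in CKO and 40280 in control.

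The measured oxidase genes and Acod1 were all brighter in CKO liver, and Nos2 was not above background in either liver. On the normalized scale, which adds an offset of 50 and so shrinks the ratios of dim genes, the log2 ratios of CKO over control ran from 0.39 for Acod1 to 1.39 for Cyba. Cyba and Rac2 were past 2-fold, so 2 of the 6 genes above background on both arrays were called higher and 0 lower, where 0.636% of all 14143 such genes were called higher and 0.0778% lower. At 1.5-fold, Cybb and Ncf1 joined them, for 4 of the 6 genes against 1.70% of all genes higher and 0.417% lower. The median log2 ratio was 0.73 over the 6 genes and -0.02 over all genes. In the deposited intensities, which carry no offset, all 6 genes were past 2-fold higher, against 3.81% higher and 1.08% lower of 14638 genes listed on both arrays, and their median log2 ratio was 1.78 against -0.04 over all genes. Against the local background column of the scanner files, 0 of the 6 genes were past 2-fold in either direction, where 2.96% of all genes were higher and 1.35% lower, and their median log2 ratio was 0.19. There Rac2 was at 0.63, Cyba at 0.46 and Ncf1 at -0.0069, so both 2-fold calls and the direction of Ncf1 depended on the background used. The local background column read 350 around the CKO spot of Cyba, itself at 449, and 61.3 around blank spots of that array. How much spot signal this column takes up was not tested. In whole-liver RNA a difference in the number of cells of a type and one in RNA per cell cannot be told apart.

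**Figure D2:**
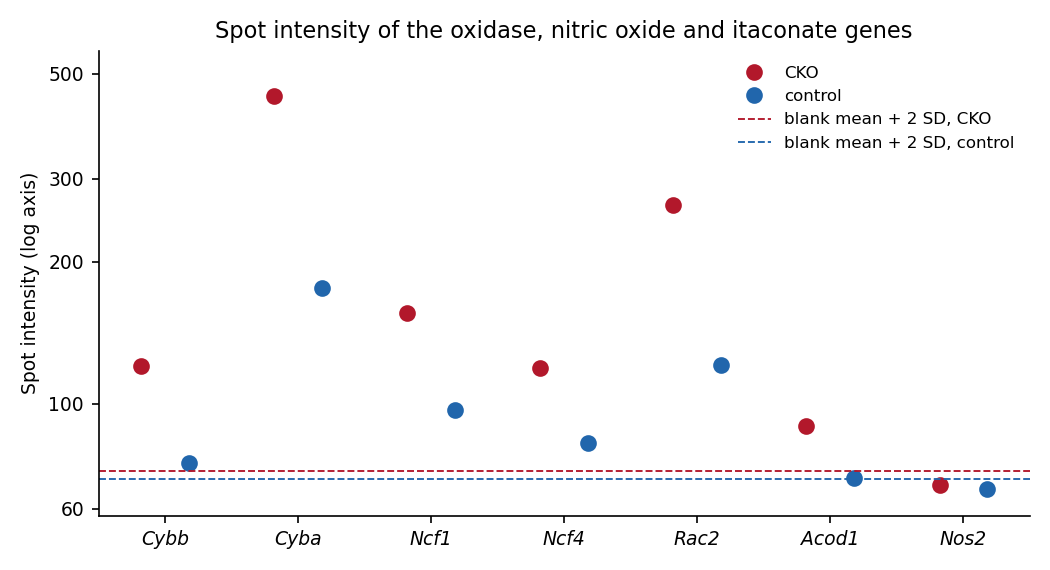
Spot intensity on a log axis for the 7 genes, with the CKO array (red) left of the control array (blue) and dashed lines at the background threshold of each array. The oxidase genes lie above both lines, the control spot of Acod1 lies at 69.6 almost on its line of 69.5, and Nos2 lies below both.

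The membrane core of the oxidase was brighter in CKO liver in both of its parts. Cybb encodes the catalytic subunit gp91phox, which carries the electrons. Its spot intensity was 121 on the CKO array and 75.1 on the control array, and the deposited intensities were 42 and 7. The CKO value is 35.4 blank-spot SDs above the blank mean and the control value 6.81, so Cybb was detected in both livers but dim in the control. Its log2 ratio was 0.75 with the offset, at rank 156 of 14143 genes from the highest, and the deposited values gave 6.0-fold. Allowing 2 SD of the blank spots on each array (2.39 deposited units for CKO and 2.01 for control) gave a range of 4.40 to 8.89 for that fold. This range covers only the spread of the blank spots. It leaves out the choice of background, the spread between spots of 1 probe, and animals. On the normalized scale against the local background column, the fold of Cybb was 1.21. Repeated spots of a positive control had SDs of 0.14 to 0.20 of the log2 signal.

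Cyba encodes p22phox, the smaller partner that stabilizes the catalytic subunit and that other NADPH oxidases also use. It had the largest difference in signal of the group, with spot intensities of 449 in CKO and 176 in control liver and deposited intensities of 313 and 93. Both values lie far from the blanks, and the deposited fold of 3.37 had a blank-spot range of 3.27 to 3.47. On the normalized scale its fold was 2.62 and its rank 51. Only 4 of the 707 genes of similar level, Cyba included, had a log2 ratio as high as its 1.39, and the ratios of that level class had an SD of 0.29. Cybc1, which encodes the chaperone that the membrane core needs to reach the surface, had deposited intensities of 45 in CKO and 51 in control liver and a log2 ratio of -0.09.

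The cytosolic subunits measured were brighter in CKO liver too. Ncf1 encodes the organizer p47phox, whose phosphorylation starts assembly. It had deposited intensities of 71 in CKO and 26 in control liver, a deposited fold of 2.73 (blank-spot range 2.45 to 3.06) and a log2 ratio of 0.72 on the normalized scale. Ncf4 encodes p40phox, which binds the phosphoinositide of the phagosome membrane. Its deposited intensities were 41 in CKO and 13 in control liver, 3.15-fold apart (2.57 to 3.95), and its log2 ratio of 0.56 was the smallest of the oxidase genes on the normalized scale. Among genes of similar level, 12 of 708 had a ratio as high as that of Ncf4 and 18 of 707 one as high as that of Ncf1, each gene itself included.

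Rac2 encodes the Rac GTPase of blood cells that completes the oxidase in neutrophils. Its spot intensity was 264 in CKO and 121 in control liver, its deposited intensity 161 and 46, and its deposited fold 3.5 (3.30 to 3.71). With a log2 ratio of 1.19 it stood at rank 66 of all genes. Rac1, the Rac gene expressed in most cells, was bright and near equal, at 1228 in CKO and 1355 in control liver with a log2 ratio of -0.07. The sequences of Rac1 and Rac2 are close, and how far either probe reads the other transcript was not tested. Gene spots within 2 rows and columns of the 7 probes, 11 to 24 for each, had median log2 ratios between -0.06 and 0.004. The local background reading was higher on the CKO array around the spots of all 6 measured genes, such as 350 in CKO and 146 in control for Cyba and 109 and 78.0 for Rac2, and the part of this in their signal was not tested.

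**Figure D3:**
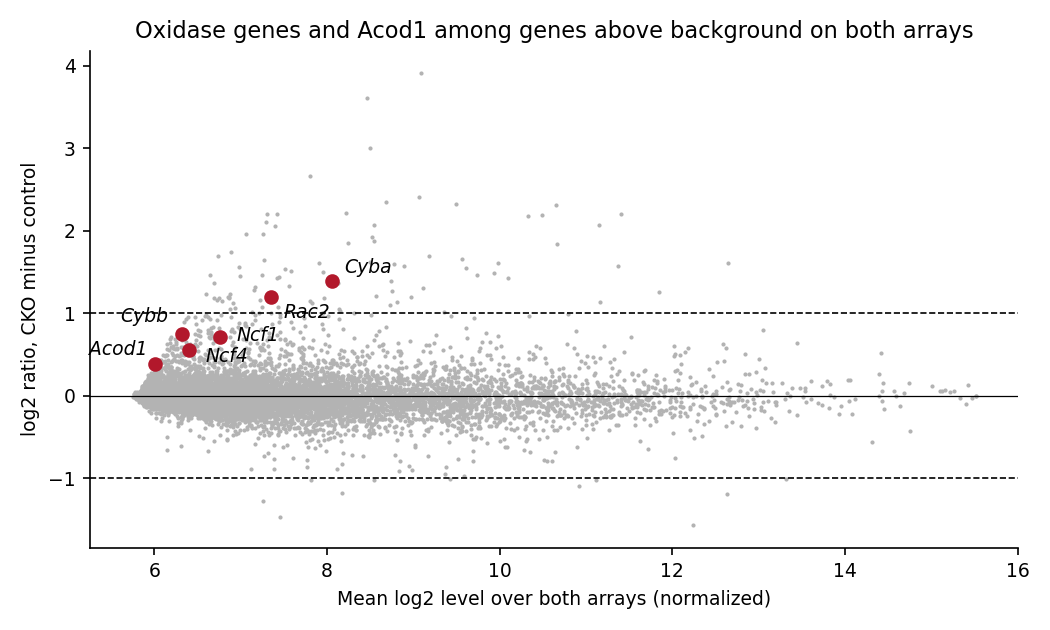
Log2 ratio of CKO over control against mean normalized log2 level for 14143 genes above background on both arrays (grey), with the 5 oxidase genes and Acod1 in red and dashed lines at 2-fold. Cyba and Rac2 lie above the upper line, and the other 4 lie between it and the dense band of genes around 0.

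Nos2 gave no usable value. Its spot intensity was 67.5 on the CKO array and 66.2 on the control array, which is -1.23 and -0.807 blank-spot SDs from the blank means of 69.3 and 67.2, and the authors' table lists no value for it in either liver. A probe below background gives only an upper bound, so a difference in Nos2 was not detectable on these arrays. Of 19 other genes of nitric oxide synthesis and its substrates with a probe, 16 were above background on both arrays, none was past 1.5-fold, and the median log2 ratio was -0.10. Gch1, whose product starts tetrahydrobiopterin synthesis, had the largest ratio of them, 0.58, with deposited intensities of 1391 in CKO and 956 in control liver. Qdpr, which regenerates the cofactor, was at -0.27 (1341 in CKO and 1683 in control). Arg1, the arginase of the urea cycle, was at -0.39 (5738 in CKO and 8159 in control) and the argininosuccinate lyase gene Asl at -0.27 (1237 and 1577). Against the local background column Gch1 was at 3.57 and Asl at 2.23, so their values depended on the background used, while the list's median was -0.06. Nos3, the endothelial synthase, had a log2 ratio of -0.19 with intensities of 14 in CKO and 22 in control liver, and Nos1 was not above background on either array.

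Acod1 was near the limit of detection in control liver. Its deposited intensity was 17 in CKO and 2 in control liver. The CKO spot lay 14.2 blank-spot SDs above the blank mean and the control spot 2.12, just past the 2 SD that define background. The deposited ratio of 8.5 therefore rests on a value of 2. With 2 SD of the blank spots allowed on each array it has a lower end of 3.65 and no usable upper end. On the normalized scale the log2 ratio was 0.39, and 4 of the 707 genes of similar level, Acod1 included, had one as high. When background was set at 3 SD instead, the control spot fell below it and the normalized fold became a bound of at least 1.28. Of the 16 measured genes of itaconate turnover and the enzymes around it, 12 had lower and 4 higher values in CKO liver, none past 1.5-fold, with a median log2 ratio of -0.08. Sdha, a subunit of the succinate dehydrogenase that itaconate inhibits, was at -0.23, and Rab32, a GTPase that helps deliver itaconate to vacuoles with bacteria, was at 0.23. Citrate synthase Cs and the succinyl-CoA ligase gene Sucla2 were both at -0.21.

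Genes around the oxidase lay on both sides of 0. Of 9 measured genes of assembly and activation, 6 had higher and 3 lower values in CKO liver, with none past 1.5-fold on the normalized scale and a median log2 ratio of 0.11. The kinase gene Prkcd, whose product phosphorylates p47phox, had deposited intensities of 84 in CKO and 47 in control liver (log2 ratio 0.50). Vav1, an exchange factor for Rac, had 15 in CKO and 3 in control liver (0.32), and the Rac exchange factor gene Dock2 had 15 and 6 (0.13). A deposited intensity given here averages only the listed probes of a gene, while its log2 ratio averages all of them. At the same 15 in CKO liver, the normalized log2 level was 6.16 for Vav1 and 5.94 for Dock2. The deposited values and the ratio of Dock2 may therefore rest on different probes. In the deposited values the median log2 ratio of the 9 genes was 0.84. There 2 of the 9 were past 2-fold, with Vav1 at 2.32, above Rac2, Cyba, Ncf4 and Ncf1 on that scale.

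The other NADPH oxidases were dim or undetected. Of 9 genes, 5 were above background on neither array, among them Nox1 and Nox4. The 4 above background on both had log2 ratios between -0.06 for Nox3 and 0.01 for Duoxa2, with Duox1 at -0.04 and Noxo1 at -0.0039, and deposited intensities of at most 22 in either liver.

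Genes that handle reactive oxygen had values on both sides of 0, with 8 of 17 higher and 9 lower in CKO liver and a median log2 ratio of -0.02. Hmox1, the inducible haem oxygenase, was the exception at 2.2-fold higher, with deposited intensities of 510 in CKO and 210 in control liver, and its log2 ratio was 0.78, under 2-fold, against the local background column. Xdh, which encodes xanthine dehydrogenase, followed at 0.53 (533 and 372). The superoxide dismutase gene Sod1 was at -0.26 and the peroxidase gene Gpx4 at 0.23. Mpo, the neutrophil myeloperoxidase that uses hydrogen peroxide made by way of the oxidase, was not above background in control liver and had a deposited intensity of 3 in CKO liver.

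Several factors and receptors known to act on these promoters were brighter in CKO liver. Of 15 measured, 11 had higher and 4 lower values, 3 were past 1.5-fold and 1 past 2-fold, and the median log2 ratio was 0.21. Irf1, an interferon-induced factor that binds the response element, had deposited intensities of 722 in CKO and 348 in control liver (log2 ratio 1.02). Irf8, a myeloid partner of PU.1, had 99 and 33 (0.88), and Spi1, which encodes PU.1, had 51 and 23 (0.50). The receptor Tlr2 had 63 and 12 (0.91). Against the local background column the list's median was 0.05, with Irf1 at 0.05, Irf8 at 0.48, Spi1 at 0.23 and Tlr2 at 0.12. Spi1, Irf1, Irf8 and Tlr2 are themselves expressed in phagocytes, and whether they differ per cell was not tested.

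Markers of leukocytes and macrophages were higher on the same CKO array. All 8 pan-leukocyte markers were past 1.5-fold higher and 4 past 2-fold, with a median log2 ratio of 0.97, and against the local background column their median was 0.48, with Fcer1g at -0.59 and Ptprc at -0.0385. Their summed signal above the blanks, taken over every listed gene with a probe, was 2189 in CKO and 671 in control liver. Tyrobp, an adaptor of myeloid receptors, had deposited intensities of 309 in CKO and 93 in control liver, and the leukocyte phosphatase gene Ptprc had 88 and 31. The Kupffer cell and macrophage list had 10 of 10 measured genes higher (median 1.16), 6 of them past 2-fold, and sums of 8133 in CKO and 2374 in control liver. Clec4f, a lectin of resident Kupffer cells, had 813 and 461 (log2 ratio 0.82), and the scavenger receptor gene Marco had 1707 and 74 (3.91). Against the local background column the list's median was 0.52, Marco was at 2.11, and Clec4f (-0.0071) and Vsig4 (-0.0948) were below 0. In the monocyte and recruited macrophage list 6 of 6 measured genes were higher, 3 past 2-fold (median 1.08), with sums of 4144 in CKO and 1216 in control liver, led by lysozyme Lyz2 (1.84) and galectin Lgals3 (1.43), and a median of 0.77 against the local background column. On the normalized scale the median of the oxidase genes, 0.75, and that of the 6 genes with Acod1, 0.73, lay below those of these 3 lists. In the deposited values the same 6 genes had a median of 1.78, against 1.71, 1.45 and 1.98 for the lists in the order given. The part of these cells in the oxidase result was not tested.

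Neutrophils, which hold large amounts of the oxidase, left a mixed trace. Of 9 measured markers, 7 had higher and 2 lower values in CKO liver, with a median log2 ratio of 0.04 (0.415 in the deposited values) and sums of 749 in CKO and 641 in control liver. S100a9 (deposited intensity 50 in CKO and 15 in control), S100a8 (66 and 36) and Csf3r (22 and 5) had the higher values, at log2 ratios of 0.67, 0.45 and 0.40. The granule genes Elane, Ngp and Camp had deposited intensities of at most 6 in either liver, Ltf and Mmp8 were above background on neither array, and Ly6g was at 345 in CKO and 356 in control liver. Retnlg had a log2 ratio of -0.11. Among eosinophil genes Ear6 was at 0.78 and Prg2 at -0.01, with Siglecf and Epx above background on neither array. Against the local background column the neutrophil median was 0.02, with S100a9 at 0.32, and Ear6 was at 0.0001.

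Lymphocyte markers were dim. The 3 measured T cell genes had a median log2 ratio of 0.38 (1.04 in the deposited values), with summed signals of 105 in CKO and 34.8 in control liver, and Cd3e was above background on neither array. The 3 B cell genes had a median of 0.02 (0.0 in the deposited values, sums 83.1 in CKO and 65.3 in control). Of 4 NK cell genes, Klrd1 alone was above background on both arrays (0.28), and the sums were 52.5 in CKO and 8.43 in control liver. Markers of the tissue's own cells had medians near or below 0 on the normalized scale. The median was 0.03 for 5 hepatocyte genes (sums 117100 in CKO and 120500 in control). For 5 stellate and mesenchymal genes, 3 higher and 2 lower in CKO liver, the median was 0.02. Decorin (Dcn) was the lowest of these at -0.52, with 918 in CKO and 1387 in control liver. Reln was at -0.09, Lrat at 0.02, and Pdgfrb and Des both at 0.06. The median was -0.43 for 5 sinusoidal endothelial genes (950 and 1375) and -0.19 for 4 cholangiocyte genes (95.5 and 137). In the deposited values the medians of these lists were 0.04 for hepatocytes, 0.11 for stellate and mesenchymal cells, -0.57 for sinusoidal endothelium and -0.65 for cholangiocytes. Against the local background column they were -0.17, -0.01, -0.09 and -0.11 in the same order. The T cell median was 0.05 and the B cell median -0.01 against that column.

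**Figure D4:**
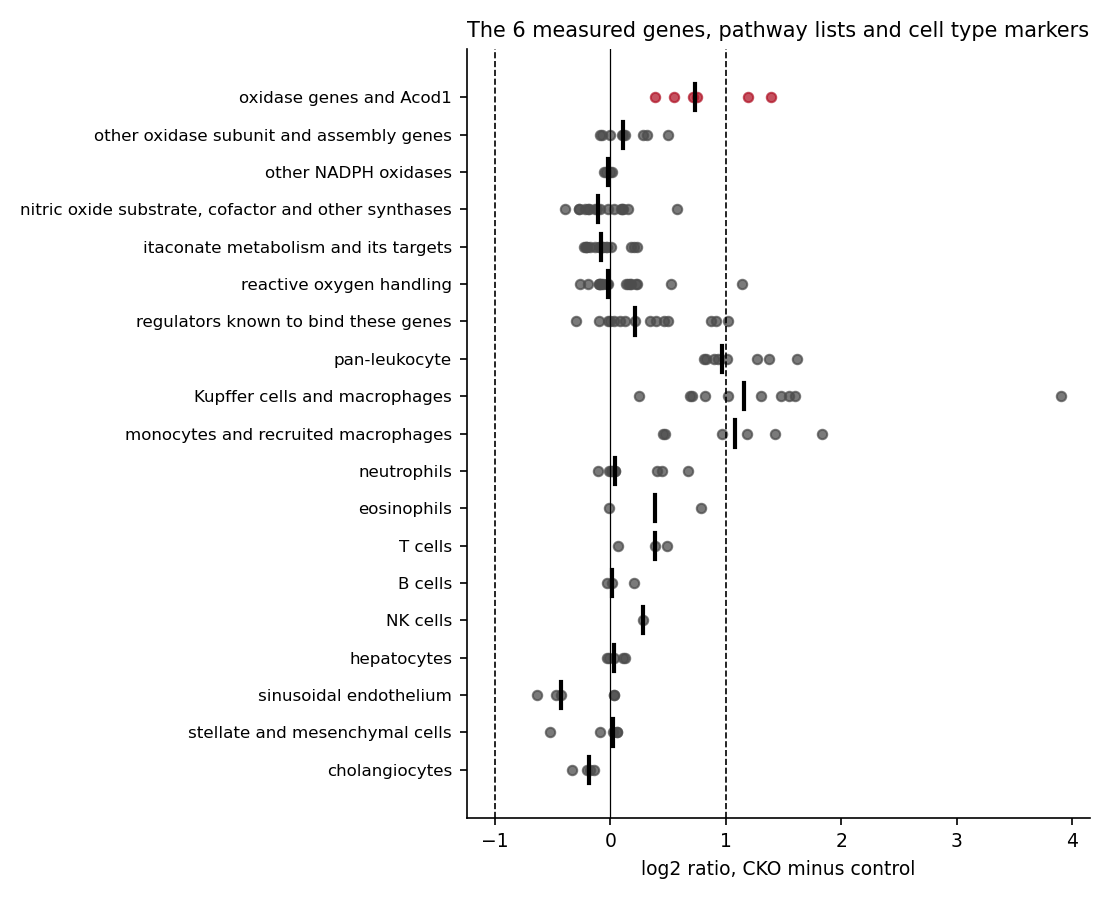
Log2 ratios of CKO over control, 1 point per gene above background on both arrays, for the oxidase genes with Acod1 (red), the related pathway lists and the cell type markers (grey), with a black bar at each median and dashed lines at 2-fold. On this normalized scale, which shrinks the ratios of dim genes, Cyba and Rac2 lie within the range of the pan-leukocyte markers. Cybb, Ncf1 and Ncf4 lie below its lowest gene, while the lists of other oxidases, nitric oxide supply and itaconate turnover sit around 0. In the deposited values, not drawn here, Cybb (2.59) lies above the highest of these markers, Itgb2 (2.15). Ncf4 (1.66) and Ncf1 (1.45) lie within their range there.

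With 2 arrays, likeness of pattern comes down to 1 ratio per gene. The nearest genes were sought on the normalized scale among the 144 listed genes above background on both arrays. The nearest log2 ratios were those of Tyrobp (1.37) and Lgals3 (1.43) for Cyba, Plac8 (1.19) and Hmox1 (1.14) for Rac2, and Ncf1 (0.72) and Ear6 (0.78) for Cybb. The nearest to Ncf1 were Cd68 (0.71) and Timd4 (0.69), the nearest to Ncf4 were Gch1 (0.58) and Xdh (0.53), and the nearest to Acod1 were Cd3d (0.38) and Ifngr1 (0.40). These gaps were at most 0.05, under the SD of 0.13 between probes of 1 gene. The pairs also depended on the scale. In the deposited values Cyba (1.75) and Tyrobp (1.73) stayed close. Ncf4 (1.66) and Gch1 (0.54) lay apart there, as did Acod1 (3.09) and Cd3d (1.04).

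The order of the oxidase genes by size of difference depended on the handling of background. In the deposited values Cybb led at 6.0-fold, followed by Rac2 (3.5), Cyba (3.37), Ncf4 (3.15) and Ncf1 (2.73). The blank-spot ranges of Rac2 and Cyba overlap, as do those of Cyba, Ncf4 and Rac2, and those of Ncf4 and Ncf1. That of Cybb lies above them all, but these ranges leave out the choice of background and the spread between spots. With the offset Cyba came first, then Rac2 and then Cybb. With an offset of 16, 4 of the 6 genes were past 2-fold (1.28% of all genes higher and 0.134% lower), and with plain subtraction all 6 were (3.05% and 0.594%). The local background column, against which the ratios were smallest, read 131 around the CKO spot of Ncf1 and 78.3 around its control spot. Around blank spots it read 61.3 on the CKO array and 57.6 on the control array. Against this column the ratios of Cs and Sucla2 were above 0 and those of Xdh and Rab32 below 0, the opposite of the signs given above. Cyba and Rac2 remained the 2 genes past 2-fold with median scaling (0.672% of all genes higher and 0.0707% lower) and cyclic loess (0.714% and 0.0566%). They were also the 2 genes with no filter on dim probes (0.466% and 0.0569%), background at 3 SD (0.674% and 0.0824%) and the brightest probe (0.651% and 0.0778%). These last settings cannot change the ratio of Cyba or Rac2, because each has 1 probe and a filter alters no level. Their counts are therefore no further check of the 2-fold calls.

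**Figure D5:**
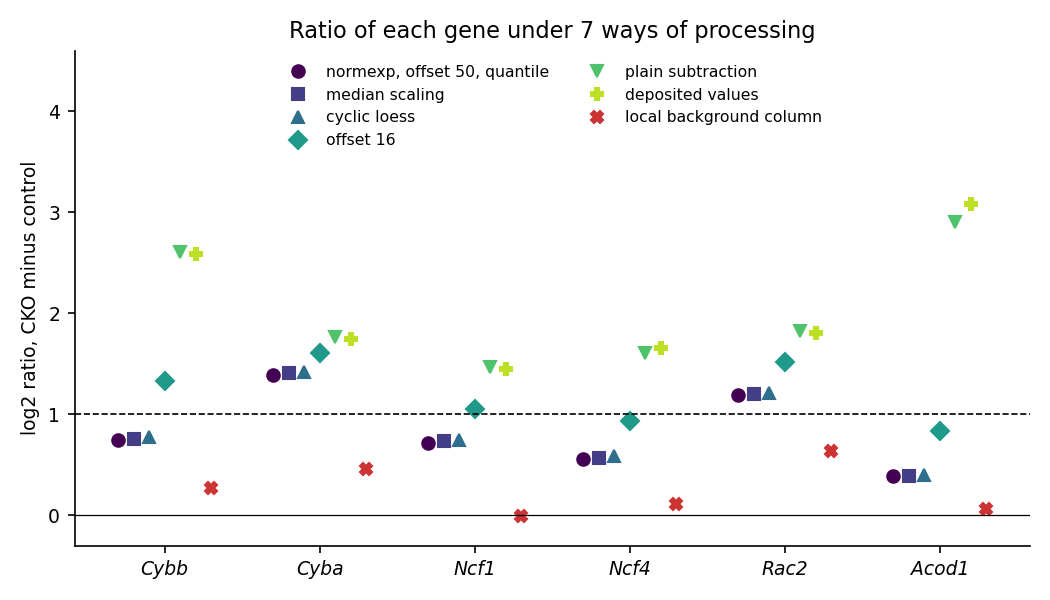
Log2 ratio of CKO over control for the 5 oxidase genes and Acod1 under 7 ways of processing, with a dashed line at 2-fold. The ratios of all 6 genes are largest with plain subtraction of the blank mean or in the deposited values and smallest against the local background column, where Ncf1 lies at -0.0069.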

How the data were processed

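Total RNA from liver of 1 Twist2-Cre/A20fl/fl (CKO) and 1 Twist2-Cre (control) sample was labelled with Cy5 after amplification, per the labels' protocols. Per the file headers, scans at 3 gains were merged into 1 median intensity for a spot and 1 for its surroundings. The deposited value table also holds intensity: tested on the values, it is the spot minus the 5% trimmed blank mean, times 0.825 (CKO) or 0.859 (control), to within 0.514 and 1.53 units. Both columns have a median of 25. The steps the authors took to make it are not stated in the labels.

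Spots were corrected with normexp against the blank mean (69.3 CKO, 67.2 control; SD 1.45 and 1.17) with an offset of 50 and quantile-normalized over gene probes (limma 3.58.1, R 4.3.3). The local background column was kept as an alternative only, because earlier work on these data had found that it rises with the spot signal. Probes were named from the platform annotation, probes of 1 gene were averaged on the log2 scale, and 4 flagged probes were left out. Probes of 1 gene differed by 0.13 (SD of the log2 ratio, 716 genes). Background was the blank mean plus 2 SD, and a gene was called past 2-fold. No test was possible with 1 array per genotype, so list results are counts and medians. Named genes were all 7 genes, and from each list those past 1.5-fold or else up to 4 with the largest ratios on both arrays. Other genes of the lists and markers were named with their values known. The genes and lists were chosen with earlier results of these data known. The scripts were tested on simulated data. Alternatives were an offset of 16, plain subtraction with a floor of 1, median scaling, cyclic loess, the deposited values, no filter, 3 SD, the brightest probe and 1.5-fold.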

Additional observations from a re-analysis of the deposited data

How the results depend on the processing

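Median scaling and cyclic loess left the count of genes past 2-fold at 2. It was also 2 with no filter on dim probes, a background of 3 SD and the brightest probe, which leave each gene's ratio unchanged. Acod1 was lost from the measured genes at 3 SD. The count was 4 with an offset of 16 (Cyba, Rac2, Cybb and Ncf1), 6 with plain subtraction, 6 in the deposited values, 0 against the local background column and 4 at 1.5-fold, and no gene of the group was past the fold on the lower side in any of these settings. Their median log2 ratio was 1.19, 1.80, 1.78 and 0.19 in the first 4 of these settings. Over all genes, 181, 431, 557, 419 and 240 were past the fold on the higher side and 19, 84, 158, 191 and 59 on the lower side, in the same order of 5 settings. For single genes of the group, no filter, 3 SD and the brightest probe repeat the ratios first given, so those entries are no further checks. With these repeats counted, 52 of 53 ratios under the alternatives were above 0, the exception being Ncf1 at -0.0069 against the local background column. Among markers past 1.5-fold on the normalized scale, the signs of Clec4f (-0.0071), Fcer1g (-0.59), Ptprc (-0.0385) and Vsig4 (-0.0948) also turned there. Some markers nearer 0 turned as well, among them Alb (0.13 to -0.47) and Retnlg (-0.11 to 0.08). The cause was not tested. No paired analysis was possible because each genotype has 1 array, and for the same reason no array could be left out. Array and genotype cannot be told apart. Cybb, Acod1 and Ncf4 lay close to the blanks in control liver, so their ratios are the least precise.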
